A study of Mus musculus with 5 samples.

Results

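The angiotensin system was described here through 6 genes of the mouse heart, chosen by symbol out of the 17228 genes of the deposited table: Agt, Agtr1a, Ace, Atp6ap2, Agtrap and Enpep. All 6 were in the table, and all 6 passed the filter on low counts. RNA carrying poly-A tails was sequenced from whole hearts at 6 months of age in 5 libraries. The WT group, labelled strain C57BL and non-diabetic, was 1 female and 1 male. The db/db group, labelled diabetic, strain C57BL and genotype KsJ-Lepr db/Lepr db, was 2 females and 1 male. The mutation removes the long, signalling form of the leptin receptor from all cells, and the mice become obese and diabetic. The KsJ background is named for the db/db mice only, so background and genotype cannot be told apart. The growth protocol speaks of male mice although 3 libraries are labelled female. The labels do not say that each library was a separate animal, so the p-values given here speak only of the spread between libraries, which may be technical.

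Agt encodes angiotensinogen, a secreted protein made above all by the liver and, at lower levels, by fat, brain, kidney and heart. The protease renin cuts angiotensin I from it, and angiotensin-converting enzyme (Ace) trims this to angiotensin II, which raises blood pressure through the type 1 receptor. In rodents that receptor comes from a pair of genes, Agtr1a and Agtr1b. Agtrap encodes a protein that binds the receptor's tail and promotes its internalisation. Atp6ap2 encodes the prorenin receptor, which is also an accessory part of the vacuolar proton pump. Enpep encodes aminopeptidase A, which cuts angiotensin II to angiotensin III.

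Library totals ran from 8356099 to 10381326 counts. Lepr, which carries the mutation, had 37 and 14 counts in WT and 3, 7 and 5 in db/db, and the Y-linked gene Ddx3y matched the sex labels, with 453 and 525 counts in males and 0 to 1 in females. The 8 ventricular cardiomyocyte markers, such as Myh6 and Pln, summed to 81430 to 88510 CPM in WT and 95740 to 117700 CPM in db/db. By log2 fold change 6 of them were higher and 2, Actc1 and Pln, were lower in db/db. EdgeR and limma-voom each called 0 of the 8 and DESeq2 1, by the limit given below. The table holds the authors' estimated counts, FPKM and TPM. CPM are these counts scaled by library size with TMM factors, and values in a series are always given in the order WT female, WT male, db/db female 1, db/db female 2, db/db male. Differences between genotypes are log2 fold changes of db/db over WT from the edgeR quasi-likelihood F test. A gene was called at a Benjamini-Hochberg adjusted p under 0.05, adjusted over all 12540 genes tested. Before adjustment, 1623 of the 12540 genes had an edgeR p under 0.05 for genotype.

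The promoter of Agt is shown because Agt is the member whose level differed between genotypes. The 300 bases below are RefSeq sequence of build GRCm38.p6, chr8:124569657-124569956, minus strand, from 250 bases before to 50 bases after the gene start. The capitals mark the letters TATAAA, which begin 30 bases before the start used in that RefSeq table.
Agt: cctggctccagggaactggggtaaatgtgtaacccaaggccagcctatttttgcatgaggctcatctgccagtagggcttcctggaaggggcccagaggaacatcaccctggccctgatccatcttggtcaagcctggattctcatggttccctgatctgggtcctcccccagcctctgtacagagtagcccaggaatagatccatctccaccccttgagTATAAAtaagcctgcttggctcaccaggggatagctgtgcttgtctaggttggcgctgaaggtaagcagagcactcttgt
TATAAA was searched on both strands and was found in 13.6% of the 32851 mouse promoters of the same length that were searched. Of the other members with a promoter in the table, Enpep and 1 of the promoters of Ace held it, on the opposite strand only. The steroid receptor core ACANNNTGT (6.85% of promoters), the C/EBP core TTGCNNAA (10.8%) and the E-box CACGTG (7.15%) were searched in the same way. These letters were not in the Agt window. A match, or none, describes the letters of this window only.

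Agt (gene ID 11606, chromosome 8, 124556587 to 124569707 in GRCm38.p6, minus strand, 5 exons) was the member that rose in db/db hearts. It had 66 and 84 counts in the WT libraries and 217, 262 and 176 counts in the db/db libraries. At equal library size these were 6.42 and 9.16 CPM in WT, and 22.1, 25.7 and 23.8 CPM in db/db. All 3 db/db libraries lay above both WT libraries with no overlap, and the lowest db/db value was well clear of the highest WT value. Groups separated in that direction in 15.1% of all genes tested. Mean CPM was 7.79 ± 1.93 (SD, n = 2) for WT against 23.9 ± 1.79 (SD, n = 3) for db/db. The log2 fold change was 1.62 (SE 0.20, 95% interval 1.18 to 2.06), a 3.07-fold difference with an interval of 2.26 to 4.18, and edgeR's adjusted p was 0.00335. Agt ranked 17 of the 12540 genes by p. The call covered 1 of the 6 members, where 1.03% of all genes tested were called in either direction. In the authors' deposited table, Agt had a log2 fold change of 1.63 and a q-value of 2.46e-07.

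The rise of Agt was seen in each sex. In females the mean of the 2 db/db libraries was 3.72 times the CPM of the WT female, and in males the db/db library was 2.60 times the WT male. The difference between the sexes in this response was tested as an interaction, which for Agt was -0.52 on the log2 scale (SE 0.38, edgeR adjusted p = 0.746). Of the 20 other settings tried, 19 kept the call, among them 3 that rest on a single WT library (females alone, without the WT male, and without the WT female together with 1 db/db library) and so have no spread within WT. Without the WT female, the library with the lowest Agt, the log2 fold change was 1.38 and the adjusted p was 0.0734. This fit likewise had a single WT library, the male, and took the spread from the db/db libraries alone. Over all settings the log2 fold change ran from 1.22 to 1.90.

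**Figure D1:**
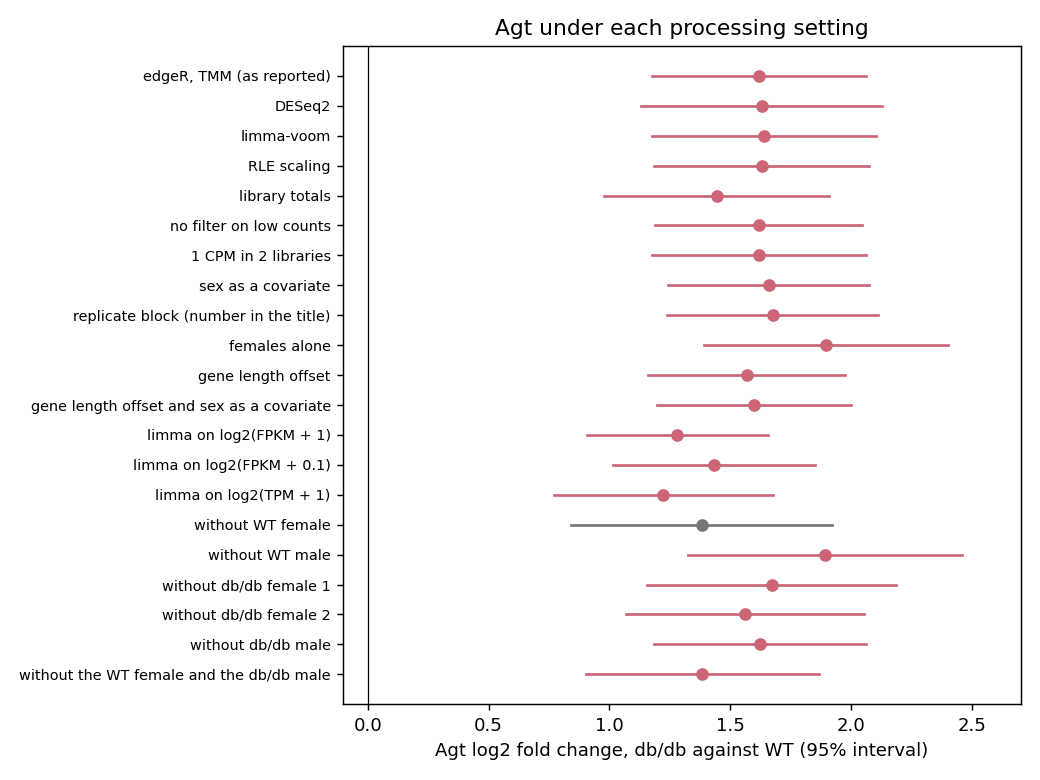
Log2 fold change of Agt (x axis, db/db over WT) with its 95% interval under edgeR as reported and under 20 other settings (y axis). Red points have an adjusted p under 0.05 and the grey point does not; all 21 estimates lie above 0, from 1.22 to 1.90, and the grey point is the fit without the WT female.

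Whole hearts hold many cell types, so more cells of a type and more RNA per cell cannot be told apart in these libraries. Markers of cell types known to make Agt were read beside it. Hepatocyte markers were low, on a scale where 3 counts, the limit that a count of 0 allows, are worth 0.292 to 0.405 CPM. Alb, the defining one, had 4, 7, 14, 13 and 21 counts, higher in all 3 db/db libraries in CPM, with a log2 fold change of 1.64 (SE 0.60, 95% interval 0.33 to 2.95, edgeR adjusted p = 0.285). Ttr, too low to be tested, had 3, 2, 9, 6 and 7 counts and was also higher in all 3. Of all genes tested, 15.1% separated in that direction. Apoa2 had 14, 20, 21, 17 and 22 counts and a log2 fold change of 0.34 (edgeR adjusted p = 0.779). Apoa1, Apoh and Fgb, too low to be tested, had 0 to 4 counts. The groups of Apoa2, Apoa1, Apoh and Fgb overlapped in CPM. The 6 hepatocyte markers in the table summed to 2.43 to 3.71 CPM in WT and 3.93 to 7.70 CPM in db/db, and of the 2 that could be tested edgeR, DESeq2 and limma-voom each called 0, with Alb under 0.05 in edgeR before adjustment. White adipocyte markers summed to 54.3 to 62.0 CPM in WT and 87.5 to 123 CPM in db/db. Nearly all of that sum was Lipe, the hormone-sensitive lipase gene, which muscle also expresses and which rose (log2 fold change 0.90, adjusted p = 0.0276). Lipe lost its call in 8 of 20 other settings, among them library totals (0.0705) and the fits that left out the WT female (0.218), the WT male (0.196) or the first db/db female (0.123). The defining fat gene Adipoq had 4, 0, 5, 5 and 8 counts, Plin1 had 0, 0, 1, 0 and 2, and Cidec had 3, 1, 5, 15 and 5. Cfd had 33, 3, 3, 4 and 3, highest in the WT female, and Lep and Retn had 0 to 2 in every library. In CPM Lipe, Adipoq, Cidec and Lep were higher in all 3 db/db libraries, and Plin1, Retn and Cfd overlapped. Lep separated barely, at 0.195 CPM in the WT female and 0.196 CPM in db/db female 2. Brown adipocyte markers summed to 94.6 to 94.99 CPM in WT and 116 to 146 CPM in db/db. Nearly all of that sum was Cidea (log2 fold change 0.64, edgeR adjusted p = 0.238) and Ppargc1a (0.24, edgeR adjusted p = 0.522). EdgeR, DESeq2 and limma-voom each called 0 of these 2, with 1 under 0.05 in edgeR before adjustment. Ucp1 had 31 counts in db/db female 2 and 1 to 4 elsewhere, and Elovl3 had 4 in db/db female 1 and 0 elsewhere. Fibroblast markers summed to 2239 to 2607 CPM in WT and 3140 to 3817 CPM in db/db. Gsn made up most of that sum, and of 7 fibroblast markers edgeR called 0, DESeq2 1 and limma-voom 0, with 1 under 0.05 in edgeR before adjustment. The part of these cell types in the rise of Agt was not tested.

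The receptor gene Agtr1a (gene ID 11607, chromosome 13, 30336356 to 30382867, plus strand, 3 exons) varied more within a genotype than between genotypes. It had 444, 301, 228, 406 and 253 counts, or 43.2, 32.8, 23.2, 39.8 and 34.2 CPM. The WT female was highest and db/db female 1 lowest, and the groups overlapped, since db/db female 2 and the db/db male lay above the WT male. Mean CPM values were 38.0 ± 7.36 (SD, n = 2) for WT and 32.4 ± 8.43 (SD, n = 3) for db/db. The log2 fold change was -0.23 (SE 0.22, 95% interval -0.71 to 0.24, edgeR adjusted p = 0.683).

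Reads of Agtr1a can be shared with its near copy Agtr1b, which was not analysed here. In GENCODE M21 transcripts the longest open reading frames of both genes were 1080 bases and matched at 981 of them, or 90.8%, with a longest identical run of 66 bases. The stretch from coding base 964 to 1023, in the part that encodes the receptor's tail, shows how they differ. Its capitals mark the 13 bases that are not the same.
Agtr1a: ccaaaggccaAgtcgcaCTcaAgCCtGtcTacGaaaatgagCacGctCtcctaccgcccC
Agtr1b: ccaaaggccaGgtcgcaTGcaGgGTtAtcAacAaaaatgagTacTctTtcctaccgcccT
How the authors' counting treated reads that match both genes is not stated in the labels or file headers, so the counts of Agtr1a are uncertain to that extent.

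Agtrap, whose protein takes the receptor off the cell surface (gene ID 11610, chromosome 4, 148077061 to 148088064, minus strand, 5 exons), had the smallest difference of the 6. It had 454, 447, 423, 498 and 348 counts, or 44.2, 48.7, 43.1, 48.9 and 47.0 CPM. The lowest and the highest value were both from db/db females, with WT between them. Mean CPM values were 46.5 ± 3.21 (SD, n = 2) for WT and 46.3 ± 2.92 (SD, n = 3) for db/db. The 95% interval of the log2 fold change, -0.31 to 0.30, was the narrowest of the 6, and its adjusted p was 0.994.

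Ace, the converting enzyme (gene ID 11421, chromosome 11, 105967945 to 105989964, plus strand, 25 exons), differed mostly between the WT libraries. It had 531, 802, 601, 674 and 502 counts, or 51.7, 87.4, 61.3, 66.1 and 67.8 CPM. Ace was lowest in the WT female and highest in the WT male, with all 3 db/db libraries between them. Mean CPM values were 69.5 ± 25.3 (SD, n = 2) for WT and 65.1 ± 3.37 (SD, n = 3) for db/db. The log2 fold change was -0.095 (SE 0.20, 95% interval -0.53 to 0.33, edgeR adjusted p = 0.877). Its exons share 173 bases with the antisense gene Gm11651, and whether reads were counted by strand is not stated in the labels or file headers.

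Enpep, which removes the first amino acid of angiotensin II (gene ID 13809, chromosome 3, 129269177 to 129332749, minus strand, 20 exons), was the least abundant member. It had 59, 91, 57, 68 and 41 counts, or 5.74, 9.92, 5.81, 6.67 and 5.53 CPM. The WT male stood above the other 4 libraries, which lay close together, and the groups overlapped. Mean CPM values were 7.83 ± 2.95 (SD, n = 2) for WT and 6.01 ± 0.593 (SD, n = 3) for db/db. The log2 fold change was -0.37 (SE 0.27, 95% interval -0.96 to 0.22, edgeR adjusted p = 0.584), and at this depth the interval holds both no change and a fall of nearly 1 on the log2 scale.

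Atp6ap2, the prorenin receptor gene (gene ID 70495, X chromosome, 12587759 to 12617051, plus strand, 9 exons), had 140, 117, 109, 137 and 87 counts. These were 13.6, 12.8, 11.1, 13.4 and 11.7 CPM. Db/db female 2 lay between the WT libraries, so the groups overlapped. Mean CPM values were 13.2 ± 0.617 (SD, n = 2) for WT and 12.1 ± 1.20 (SD, n = 3) for db/db, a log2 fold change of -0.12 (SE 0.19, 95% interval -0.53 to 0.28, edgeR adjusted p = 0.815). The median log2 fold change of the 6 members was -0.11, and that of all genes tested was -0.007.

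**Figure D2:**
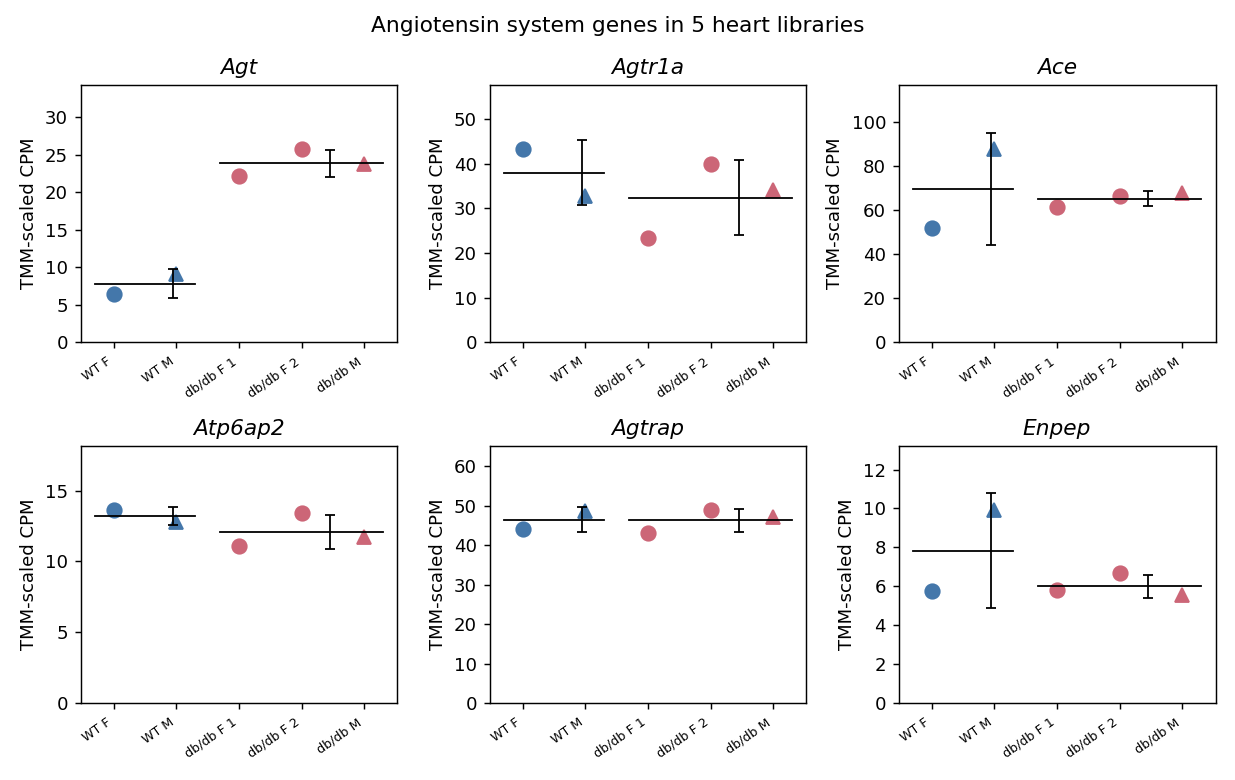
TMM-scaled CPM (y axis, from 0) of each of the 6 genes in each library (x axis; F female, circles; M male, triangles; blue WT, red db/db). Horizontal lines are group means and bars the SD; for Agt the db/db libraries lie at 22.1 to 25.7 CPM and the WT libraries at 6.42 and 9.16 CPM, and the groups of the other 5 genes overlap.

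To compare genes with each other, levels per gene length (the authors' TPM) were used. In WT the order by mean TPM was Ace at 28.4 ± 7.50 (SD, n = 2), Agtr1a at 27.8 ± 8.98, Agtrap at 17.2 ± 0.95, Atp6ap2 at 8.48 ± 1.47, Agt at 6.40 ± 0.79 and Enpep at 2.71 ± 0.69. Ace and Agtr1a overlapped in WT, and the other neighbours in this order did not. In db/db the order was Ace at 23.0 ± 1.31 (SD, n = 3), Agtr1a at 19.1 ± 5.40, Agt at 16.3 ± 2.23, Agtrap at 14.1 ± 1.61, Atp6ap2 at 6.37 ± 1.05 and Enpep at 1.75 ± 0.33. Here Agt overlapped both of its neighbours, Agtr1a and Agtrap, while Ace overlapped Agtr1a. Agt thus had rank 5 of the 6 in both WT libraries, rank 2 in db/db female 1 and rank 3 in the other db/db libraries. Among all genes of the table, Agt moved from the percentile 56.8 in WT to 76.7 in db/db by mean TPM.

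**Figure D3:**
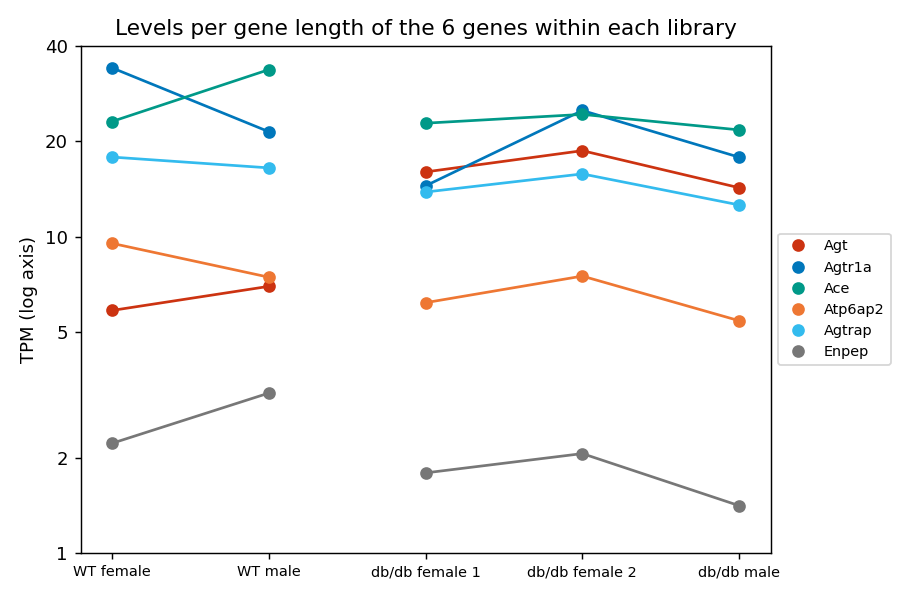
TPM of the 6 genes (y axis, log scale) within each of the 5 libraries (x axis), with lines joining the libraries of 1 genotype for reading only. Agt lies below Atp6ap2 in both WT libraries, at 5.84 and 6.96 TPM, and above Atp6ap2 and Agtrap in all 3 db/db libraries, at 14.3 to 18.7 TPM.

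Ratios within a library do not depend on how libraries are scaled to each other. Agt made up 6.30% and 7.80% of the summed TPM of the 6 genes in WT, and 21.3%, 20.0% and 19.5% in db/db. The db/db shares lay close together and above both WT shares. The ratio of Agt to Ace was 0.253 and 0.207 in WT and 0.701, 0.768 and 0.656 in db/db. The ratio of Agt to the receptor gene Agtr1a was 0.171 and 0.324 in WT and 1.11, 0.746 and 0.801 in db/db, so substrate and receptor transcripts were nearer to equal in all 3 db/db libraries. By contrast the ratio of Agtr1a to Ace, at 1.48, 0.637, 0.634, 1.03 and 0.820, overlapped between genotypes. These ratios show unequal change between genes, not which of them changed.

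Between the sexes, tested beside genotype, edgeR called 0 of 6 members, DESeq2 0 and limma-voom 0, where edgeR called 1.4% of all genes. In edgeR 1 member was under 0.05 before adjustment, as were 1870 of the 12540 genes tested. That member was Ace, at a log2 difference of 0.38 for male over female (SE 0.15, edgeR adjusted p = 0.253). Without the db/db male, which leaves the WT male as the only male, this was 0.75 with an adjusted p of 0.0102. For the interaction of genotype and sex, the 3 tools likewise called 0 of 6 members, where edgeR called 1.16% of all genes. Before adjustment edgeR had 1237 of the 12540 genes tested under 0.05, and 1 of them was a member. That gene was again Ace, with an interaction of -0.67 (SE 0.25, edgeR adjusted p = 0.244): the mean CPM of db/db females was 1.23 times that of the WT female, while among males the value of db/db was 0.775 times that of WT. For Enpep the same ratios were 1.09 and 0.558, with an interaction of -0.96 (SE 0.50, edgeR adjusted p = 0.52). The interaction model has 1 residual degree of freedom, from the 2 db/db females. Its p-values for Agt, Ace and Enpep therefore rest on a variance shared across genes, and say little about the spread of each gene between libraries.

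The rest of the angiotensin system was read from a list of 26 further genes, of which 22 were in the table and 17 could be tested. Of these 17, edgeR called 0, DESeq2 0 and limma-voom 0, with 1 under 0.05 in edgeR before adjustment. Of the 17, 6 had a positive and 11 a negative log2 fold change, with a median of -0.13. Ren1, the renin gene, had 0 counts in all 5 libraries, which allows up to 0.405 CPM in the library with the highest floor. The protease gene Ctsg was also at 0 in all libraries. Agtr2, the type 2 receptor, had 2, 0, 0, 0 and 1 counts, so no fold can be given for these 3 genes.

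Mas1, the receptor for the shorter peptide angiotensin-(1-7), had 23, 7, 12, 10 and 15 counts and a log2 fold change of -0.14 (SE 0.55, edgeR adjusted p = 0.936). Its highest and lowest libraries were the pair of WT.

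The other enzymes and binding proteins of the peptides did not share a direction. Mme, the gene of neprilysin, which cleaves angiotensin and natriuretic peptides, had 65, 46, 27, 41 and 34 counts. Its db/db libraries all lay below WT in CPM, as in 16.5% of all genes tested, with a log2 fold change of -0.59 (SE 0.30, 95% interval -1.24 to 0.055, edgeR adjusted p = 0.418). Lnpep, the gene of an aminopeptidase that binds angiotensin IV, had 122, 100, 103, 81 and 63 counts, also lower in all db/db libraries in CPM (log2 fold change -0.34, adjusted p = 0.506). Prcp, a carboxypeptidase gene, had 129, 122, 108, 116 and 68 counts and a log2 fold change of -0.29 (edgeR adjusted p = 0.536). Mtus1, whose protein binds the type 2 receptor, had 1530, 1389, 1298, 1191 and 791 counts. It was the gene of this list under 0.05 before adjustment, at a log2 fold change of -0.34 (SE 0.14, edgeR adjusted p = 0.346). The mast cell chymases Cma1 and Mcpt4, which can form angiotensin II in the heart, had 8 to 27 and 13 to 33 counts, with overlapping groups. The other peptidase genes ranged from 73 to 203 counts for Anpep, 213 to 452 for Prep, 251 to 366 for Thop1, 90 to 119 for Nln, 222 to 311 for Dpp3 and 228 to 369 for Rnpep. The cathepsin genes Ctsd and Ctsb, of lysosomal proteases, had 11555 to 16397 and 4787 to 7145 counts. Log2 fold changes were positive for Anpep (0.020), Thop1 (0.15), Nln (0.18), Dpp3 (0.19) and Ctsd (0.14). They were negative for Cma1 (-0.17), Mcpt4 (-0.051), Prep (-0.22), Rnpep (-0.17) and Ctsb (-0.13). Of the aldosterone branch, the mineralocorticoid receptor gene Nr3c2 had 34 to 57 counts, Hsd11b1 had 77 to 172, Hsd11b2 had 1 to 3 and Cyp11a1 had 0 to 2. Agtr1b, Mrgprd, Cyp11b1 and Cyp11b2 were not analysed here.

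**Figure D4:**
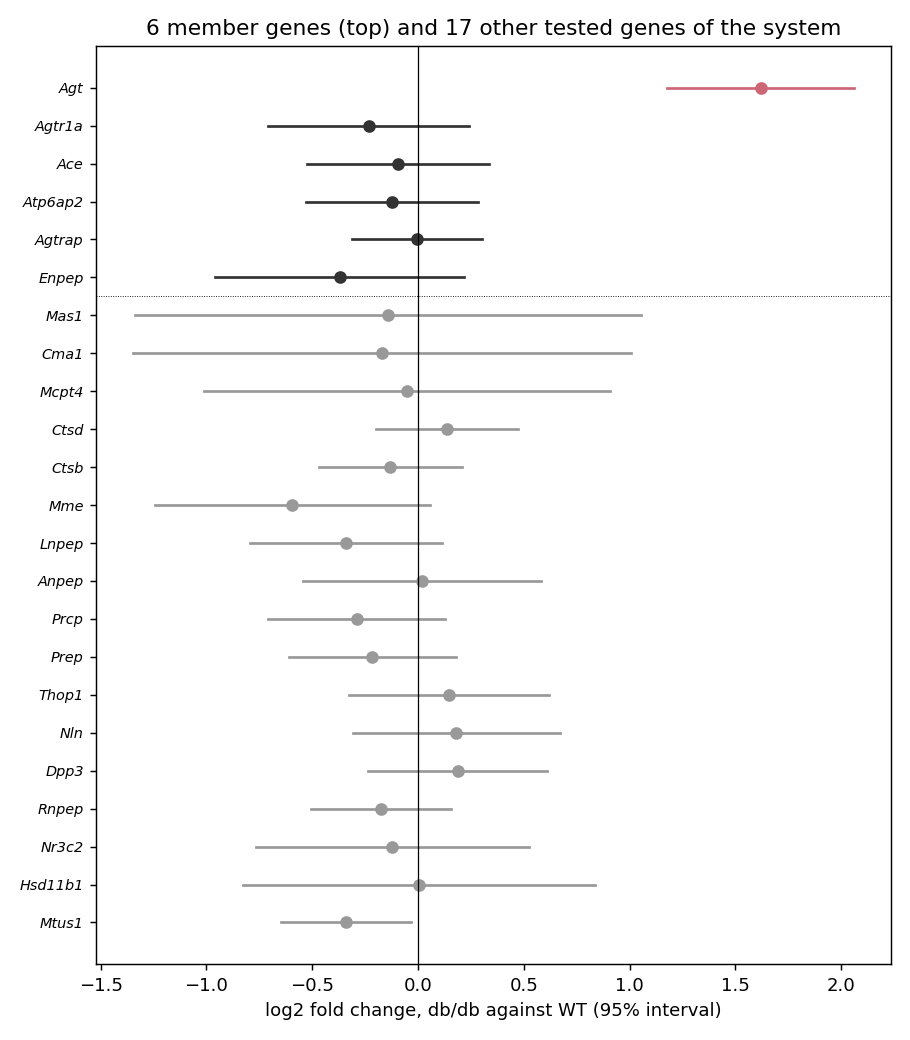
Log2 fold change of db/db over WT (x axis) with 95% intervals for the 6 genes described here, above the dotted line, and the 17 other tested genes of the angiotensin system below it (y axis). Agt, in red, passed the test at 1.62 (1.18 to 2.06); the other 22 genes did not, and the interval of Mtus1 leaves out 0 before adjustment.

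Genes downstream of the receptor were read from 2 lists. Of 27 genes that couple the type 1 receptor to its effectors, such as G proteins, arrestins and phospholipases, edgeR, DESeq2 and limma-voom each called 0 (3 under 0.05 in edgeR before adjustment), with a median log2 fold change of 0.016. Of 19 genes known to be raised by angiotensin II in heart or vessel, 17 were tested, 1 fell and 16 did not pass in edgeR. EdgeR called 1.03% of all genes tested. DESeq2 called 1 of the 17 and limma-voom 0. In edgeR 4 of the 17 were under 0.05 before adjustment, against 1623 of the 12540 genes tested. These 4 were Nppb, Nppa and Rcan1, which were lower, and Fn1, which was higher. Nppb, which encodes the natriuretic peptide BNP and is raised by cardiac load, was the gene that fell. It had 3722 and 6050 counts in WT and 2311, 1446 and 1427 in db/db. Its db/db libraries all lay below WT in CPM, as in 16.5% of all genes tested. Its log2 fold change was -1.43 (SE 0.26, edgeR adjusted p = 0.0335). It lost its call in 7 of 20 settings, and without the WT male its log2 fold change was -0.93 (adjusted p = 0.19) and without the db/db male its adjusted p was 0.438. Of 15 subunit genes of the proton pump that Atp6ap2 belongs to, edgeR, DESeq2 and limma-voom each called 0 (0 under 0.05 in edgeR before adjustment), with a median of 0.087.

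The genes with the library profile nearest to a member were found as the root mean square distance of log2 CPM over the 5 libraries, each gene centred on its own mean, among the 9854 genes whose mean reached 5 CPM. This is a description without a test. For Agt, whose own spread on this measure was 0.806, the nearest were AI593442 at a distance of 0.124, Cebpb at 0.172, Ahsg at 0.188, Bcl2l1 at 0.248 and Rgcc at 0.251. All 5 were called higher in db/db, as genes near to a called gene in these libraries must tend to be. AI593442 and Ahsg had 2.04 to 2.29 CPM in WT and reached the mean of 5 CPM only through db/db, so this limit favours genes that are high there. Cebpb encodes C/EBP beta, a transcription factor of liver, fat and immune cells, and had 288, 263, 904, 1010 and 613 counts. The log2 fold change of Cebpb was 1.69 (SE 0.15, edgeR adjusted p = 0.000571), and it kept its call in all 20 other settings. Ahsg encodes fetuin-A, a protein that the liver secretes, and had 21, 20, 55, 86 and 58 counts, a log2 fold change of 1.78 (edgeR adjusted p = 0.0173). Without the WT female its adjusted p was 0.21 and without the WT male 0.111. Bcl2l1, whose main product protects cells from death, had a log2 fold change of 1.30 (edgeR adjusted p = 0.00214, and 0.0608 without the WT female). Rgcc, a regulator of the cell cycle, had 1.44 (adjusted p = 0.0155, 0.166 without the WT female and 0.0538 without db/db female 1). AI593442 had 1.68 (adjusted p = 0.0177) and lost its call in 6 of 20 settings, with adjusted p of 0.217 when the WT female was left out, 0.107 for the WT male and 0.0692 for db/db female 1.

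**Figure D5:**
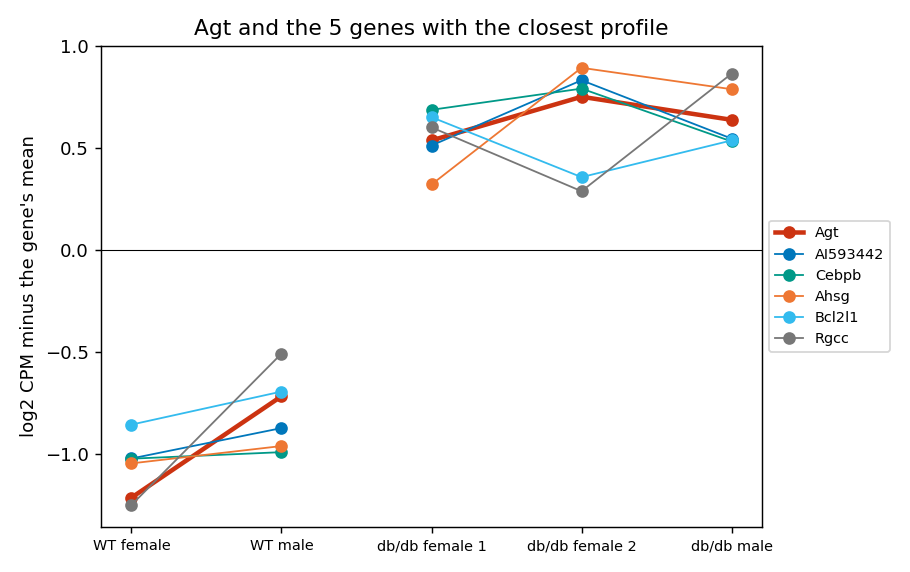
Log2 CPM of Agt (thick line) and the 5 genes with the nearest profile, each minus its own mean over the libraries (y axis), in the 5 libraries (x axis); lines join libraries of 1 genotype for reading only. All 6 genes lie below 0 in both WT libraries and above 0 in the db/db libraries, with Agt between -1.21 and 0.75.

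The other members had neighbours of other kinds. For Agtr1a, with a spread of 0.306, the nearest were Ripk2 at 0.0665, Mfap1b at 0.0847 and Pou2f1 at 0.0881. For Ace, with a spread of 0.245, they were Cep89 at 0.0528, Mrpl13 at 0.068 and Fam110a at 0.0692. For Enpep, with a spread of 0.302, they were Meox1 at 0.0674, Car8 at 0.0741 and Tspan2 at 0.0804. Atp6ap2 (Ube2n, Fam210b and Cdc73) and Agtrap (Tmbim4, Plbd2 and Tmem14c) had spreads of 0.111 and 0.073, so small that many genes are near to them. No gene stood among the nearest of more than 1 member.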

How the data were processed

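Poly-A RNA of mouse hearts was sequenced in 5 libraries. The submitters' processing notes name HISAT, Bowtie2, DESeq2 and GRCm38.p6. Per the file headers, the authors deposited estimated counts, FPKM and TPM per library, and a log2 fold change, p-value and q-value per gene. Of the deposited estimated (expected) counts 91.4% were exactly whole, and all were rounded. A text line was dropped, and 23 symbols turned into dates were restored. Counts were tested with edgeR 4.0.16 in R 4.3.3 (TMM, robust quasi-likelihood F test, edgeR's filter for low counts by genotype), tested on simulated data. Genotype was fitted alone, sex beside genotype, and the interaction in a model of both. A count of 0 allows 3 counts, and this covers counting error only. Intervals are 95%, from SEs derived from the F statistics.

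Alternatives were DESeq2 1.42.0, limma-voom and limma 3.58.1 on log2(FPKM + 1), log2(FPKM + 0.1) and log2(TPM + 1), and other scalings, filters, covariates and libraries. On the TPM and FPKM scales and by library totals the median of all genes lies lower in db/db, so folds are given on the TMM scale. Of the list of other angiotensin genes and of the list of genes raised by angiotensin II, 1 gene each is not reported here and is outside their counts, which describe the remaining genes only. The members, gene lists and tests were chosen with earlier results of these data known. Named were all members, the receptors, renin and converting or degrading enzymes, list genes that passed, and the 3 genes nearest in profile to each member (5 for Agt), without predicted genes. Promoters are from a RefSeq table that held 5 of 6 members. Replicates differed by more than sampling noise.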

Additional observations from a re-analysis of the deposited data

How the results depend on the processing

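For db/db against WT, 129 genes were called in all. This count was 241 with DESeq2, 259 without a filter, 829 with sex in the model, 973 for females alone, 458 with a gene length offset and sex, 433 without 2 libraries (WT female, db/db male), and 25 to 244 when 1 library was left out. The members called were 0 to 1 with 1 library left out, 0 without the WT female. Of the 17 other angiotensin genes, 0 were called in each setting. Of the members without a call, Ace, Agtrap and Enpep changed sign in some settings, and Agtr1a and Atp6ap2 did not in the 20 tried. Ace was 0.009 with sex, 0.302 in females alone, 0.063 with length offset and sex, and -0.43 to 0.33 with 1 library left out. Agtrap was 0.006 with DESeq2 and RLE scaling, 0.011 with sex, 0.058 in females alone and with the length offset, 0.087 with offset and sex, and -0.072 to 0.068 with 1 left out. Enpep was 0.121 in females alone and -0.72 to 0.069 with 1 left out. Outside the members, Mas1 was 0.522 without both libraries and -0.70 to 0.84 with 1 left out. The cause of these shifts was not tested.

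Deviations of same-numbered libraries from their group mean correlated at 0.152, -0.201 and -0.112. With 2 WT libraries, the deviations of the WT male are those of the WT female with the sign reversed. These correlations are therefore not independent and cannot show whether the numbers in the sample titles pair the samples. With the number as a replicate block 80 genes were called, Agt was 1.67 (adjusted p = 0.00401), Ace 0.001 and Agtrap 0.017.

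For male against female, 176 genes were called, and 307 with DESeq2, 40 by library totals, 420 without a filter, 30 with the length offset, 10 and 7 by limma on log2(FPKM + 1) and log2(FPKM + 0.1), and 34 to 854 with 1 library left out, when 0 to 1 members were called. Agtrap was -0.061 by library totals and -0.05 and -0.054 by FPKM. With 1 left out, Agt was -0.011 to 0.51, Agtr1a -0.40 to 0.11 and Enpep -0.17 to 0.78. For the interaction, 145 genes were called, and 4 with DESeq2, 30 without a filter, 41 with the length offset, and 30 and 35 by the FPKM fits; leaving out libraries was not run there. By library totals, log2(FPKM + 1), log2(FPKM + 0.1) and log2(TPM + 1) the median of all genes was -0.19, -0.15, -0.17 and -0.24, and Agt was 1.44, 1.28, 1.43 and 1.22. Counts under 100 limit Agt in WT and Enpep.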

Other observations

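Of 10 genes that glucocorticoids raise in many tissues, a list chosen with earlier results of these data known and so no independent evidence, 6 rose in db/db and 4 did not pass. Their median log2 fold change was 1.42. Over all 12540 genes tested 84 rose, and the median was -0.007. Fkbp5, a chaperone partner of the glucocorticoid receptor, had 92, 75, 471, 393 and 231 counts (log2 fold change 2.20, SE 0.21, edgeR adjusted p = 0.000783). Zbtb16, a transcriptional repressor, had 225, 166, 991, 568 and 708 counts (2.07, adjusted p = 0.00367). The metallothionein gene Mt2 had a log2 fold change of 1.83 (edgeR adjusted p = 0.000571), Per1, a clock gene, 1.59 (adjusted p = 0.0127), and Tsc22d3, which encodes the anti-inflammatory protein GILZ, 1.25 (adjusted p = 0.00408). Hif3a had 3, 5, 46, 32 and 16 counts (adjusted p = 0.0276). Fkbp5, Zbtb16 and Mt2 kept their calls in all 20 other settings. Per1 lost it without the WT male (0.0587) and without the db/db male (0.0752), Tsc22d3 without the WT female (0.0715) and without the WT male (0.0548), and Hif3a in 5 settings, with adjusted p up to 0.316. DESeq2 called 9 of the 10 and limma-voom 5. The 4 that did not pass, Klf9, Sgk1, Pdk4 and Cdkn1a, had adjusted p from 0.0567 to 0.236.

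Pericytes are a main site of Agtr1a in the mouse heart. Their 6 markers summed to 1000 and 917 CPM in WT and 845, 874 and 653.5 CPM in db/db, lower in all 3 db/db libraries. Rgs5 made up most of that sum, at 587, 561, 534, 542 and 411 CPM. Rgs5, Abcc9, Cspg4 and Pdgfrb were each lower in all 3, as were 16.5% of all genes tested, while Kcnj8 and Notch3 overlapped. All 6 had a negative log2 fold change (median -0.21), where 49% of all genes tested had a positive value. EdgeR, DESeq2 and limma-voom each called 0 of the 6 (1 under 0.05 in edgeR before adjustment). Endothelial markers, of the cells that carry much of the Ace protein, summed to 1014 and 1272 CPM in WT and 1114, 1063 and 951 CPM in db/db, with overlapping groups, and the same 3 tools called 0 of 7 (2 under 0.05 in edgeR before adjustment).

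In the lists that follow, edgeR, DESeq2 and limma-voom each called 0 markers, with 0 to 3 of a list under 0.05 in edgeR before adjustment. Smooth muscle markers summed to 320 to 356 CPM in WT and 274 to 456 CPM in db/db, and macrophage markers to 139 to 158 and 159.9 to 166 CPM. C1qa was the largest part of the macrophage sum, and of the 6 markers 3 had a positive and 3 a negative log2 fold change. Adgre1 was lower in all 3 db/db libraries in CPM, as were 16.5% of all genes tested. Cd68 and Cd163 were higher in all 3, as were 15.1%. Mast cell markers summed to 11.4 to 12.5 CPM in WT and 6.42 to 12.9 CPM in db/db. For atrial cardiomyocyte markers the sums were 405 to 503 and 246 to 364 CPM, and for red blood cell markers 3363 to 9644 and 6811 to 8306 CPM. Nearly all of the atrial sum was Nppa, at 401, 497, 309, 241 and 350 CPM (log2 fold change -0.58, edgeR adjusted p = 0.199). Myl4 had a log2 fold change of 0.21 (edgeR adjusted p = 0.841) with overlapping groups. The atrial gene Sln had 12 counts in the db/db male and 0 in the other 4 libraries, and Myl7 had 38 there and 2 to 8 elsewhere.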
